A study of Rattus norvegicus with 8 samples.

Results

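The cathepsins and the lysosomal acid lipase were followed across fast and slow cells of the C6 rat glioma line. Every probe set annotated with the single symbol Ctsb, Ctsc, Ctsd, Ctsh, Ctsl, Ctss or Lipa was taken, whatever its values, which gave 12 probe sets of 7 genes among 8740 probe sets other than controls and 4736 named genes. Of these, 11 probe sets, with at least 1 for each of the 7 genes, passed the filter on low signals and were tested. The tested probe set of Ctsc passed it only through 1 high array. The 7 genes were chosen with earlier results of these data known, so their counts against all probe sets are descriptive and no test.

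Cathepsins are proteases of the lysosome, the acidic compartment in which a cell breaks down proteins, lipids and sugars taken up from outside or from its own cytoplasm. Cathepsin D is an aspartic protease, and cathepsins B, C, H, L and S are cysteine proteases of the papain family, while lysosomal acid lipase, the product of Lipa, releases cholesterol and fatty acids from the lipoprotein lipids that reach the lysosome. Most of these enzymes are carried to the lysosome by receptors for mannose 6-phosphate, are held in check outside it by cystatins, and can be secreted. In human glioma, secreted cathepsins are known for cleaving the matrix that surrounds tumour cells.

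C6 is an established rat glioma line with glial features, and total RNA of these cells was hybridised to 8 oligonucleotide arrays that the labels describe with the word migration. The arrays formed 4 groups of 2 replicates, named by their titles as C6SPGFP fast, C6SPGFP slow, C6 fast and C6 slow. The meaning of C6SPGFP, the way fast cells were separated from slow ones, the age of the cultures and any agent added are not stated by the labels used here. Nothing says that replicates came from separate cultures, so the p-values reflect the spread among these arrays alone, and that may be technical. As these are bulk samples, fewer cells of a type and less RNA per cell cannot be told apart.

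Promoter stretches are shown for Ctsl and Lipa, on which the results turn, and for Ctsd, whose window was the only one of the members' to hold the E-box letters CACGTG. That element is bound by the TFEB family of transcription factors, which drives many lysosomal genes. Sequences are from RefSeq, build GRCr8, printed 5′ to 3′ on the strand of the gene up to the base before its annotated start, with the E-box letters above in capitals, as well as the GC box GGGCGG, bound by Sp1, or its reverse complement. The Ctsl stretch is chr17:769854-770103 on the plus strand, the Ctsd stretch chr1:206968822-206969071 on the minus strand, and the Lipa stretch chr1:241470937-241470990 on the minus strand, cut to the 54 bases ahead of its outermost annotated start.
Ctsl: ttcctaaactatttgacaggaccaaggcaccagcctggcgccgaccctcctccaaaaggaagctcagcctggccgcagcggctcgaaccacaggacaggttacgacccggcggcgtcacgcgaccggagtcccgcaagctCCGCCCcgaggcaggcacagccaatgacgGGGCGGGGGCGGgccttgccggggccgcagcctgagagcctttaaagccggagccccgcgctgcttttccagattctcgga
Lipa: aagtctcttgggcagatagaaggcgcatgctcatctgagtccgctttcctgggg
Ctsd: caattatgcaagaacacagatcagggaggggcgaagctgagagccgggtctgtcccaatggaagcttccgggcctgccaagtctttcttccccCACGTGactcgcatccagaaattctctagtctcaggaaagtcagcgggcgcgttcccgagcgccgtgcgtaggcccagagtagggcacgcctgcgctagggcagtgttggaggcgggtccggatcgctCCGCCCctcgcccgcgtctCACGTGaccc

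The motif search covered 250 bases before and 50 bases after the start, on both strands, and a window was found for 6 of the 7 genes, all but Ctsb. CACGTG was in 1 of the 6 windows, that of Ctsd, 157 and 10 bases ahead of the start, against 6.42% of 33469 RefSeq windows of that length. The second Ctsd copy lay inside the longer letters TCACGTGA, which 0.777% of all windows held. The GC box letters were in the windows of Ctsc, Ctsd, Ctsh and Ctsl, against 33.1% of all windows, and Ctsl held them 110, 81 and 75 bases ahead of the start. TATAAA, the TATA box, was found among the members in Ctss alone, against 14.2% of all windows. These matches describe letters and not sites.

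The deposited signals had a 2% trimmed mean between 100.1 and 105.8 on 7 arrays and of 500.5 on C6SPGFP fast replicate 1, so signals were quantile normalised between arrays before any comparison. Pearson's r, taken over probe sets that are no independent replicates, was 0.9693 to 0.9778 between replicates. C6 fast arrays had an r of 0.899 to 0.939 with arrays of the other groups. Between those other groups r was 0.936 to 0.971, so the ranges overlapped slightly. Vim, the intermediate filament vimentin abundant in C6 cells, lay between 2594 and 3831 units of normalised signal on every array. Microglial and macrophage markers were below the filter on 11 of 22 probe sets, and Itgam, an integrin of those cells, stayed between 0.75 and 4.65 units. Over these 22 probe sets, of the 14 such marker genes measured, of 26 listed, the summed signal was 695 to 700.2 units in C6SPGFP fast, 803 to 832 in C6SPGFP slow, 494 to 576 in C6 fast and 590 to 601 in C6 slow cells. Of the 9 marker genes tested, 8 had a positive and 1 a negative change in fast against slow cells of C6, and only Cd37 passed, higher by 1.41 on the log2 scale (limma adjusted p = 0.0271). That call was kept in 8 of 16 alternative fits, and over all probe sets tested 6.66% were called. In C6SPGFP fast against C6 fast cells P2ry12 and Cd14 were higher by 1.58 and 1.02 and Cd37 was lower, at -1.10 (limma adjusted p = 0.0156, 0.0111 and 0.0417), though Cd37 turned to 0.119 on the deposited scaling. The Cd37 call between the sets was kept in 5 of 16 alternative fits, and over all probe sets tested 15.6% were called. P2ry12 was also higher in C6SPGFP slow against C6 slow cells, by 1.77 (limma adjusted p = 0.019), and its signals on the C6 arrays were low, at 1.1 to 8.6 units. Cd14, the brightest of these 3, had 175 to 292 units in C6SPGFP cells of either kind, 87.4 to 128 in C6 fast and 123 to 188 in C6 slow cells. No marker of the list was at exactly 0, and the part of these cells in the results below was not tested. The glial transcription factor Sox10 had 2.23 and 0.9 units in C6 fast cells, against 240.5 and 367 in C6 slow cells, so a fall of a glial lineage gene (limma adjusted p = 5.86e-06) moved with those of Ctsl and Lipa below. Of the 8 glioma line markers tested, 4 were lower in C6 fast than in C6 slow cells, Sox10, S100b, Cnp and Nes. Over all probe sets tested 3.96% were lower. In C6SPGFP fast against C6 fast cells these 4 were higher, by 5.49, 4.11, 2.77 and 1.70, as was Vim, by 0.48. Gja1, another marker of the list, was lower there, at -1.17 (limma adjusted p = 0.0214). The Vim and Gja1 calls were kept in 12 of 17 and 11 of 16 alternative fits, across which the Vim change went as low as 0.005. Between slow cells of the sets S100b and Cnp were higher, by 1.57 and 1.46, and Gja1 was lower, at -1.57, where 6.34% of all probe sets tested were called. The part of these markers in the results was not tested either.

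Ctsl and Lipa gave the widest differences among the 7 genes. Both were lower in C6 fast than in C6 slow cells, and both were higher in C6SPGFP fast than in C6 fast cells. In C6SPGFP the genes parted: Lipa was lower in fast cells by 1 of its 3 probe sets, while Ctsl values were higher in fast cells without passing the test. Ctsh and, by only 1 of its probe sets, Ctsd were higher in C6SPGFP fast than in C6 fast cells. Each of these calls was kept in 15 of 17 alternative fits. The changes of Ctsb, Ctsc and Ctss passed the test in none of the comparisons.

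**Figure D1:**
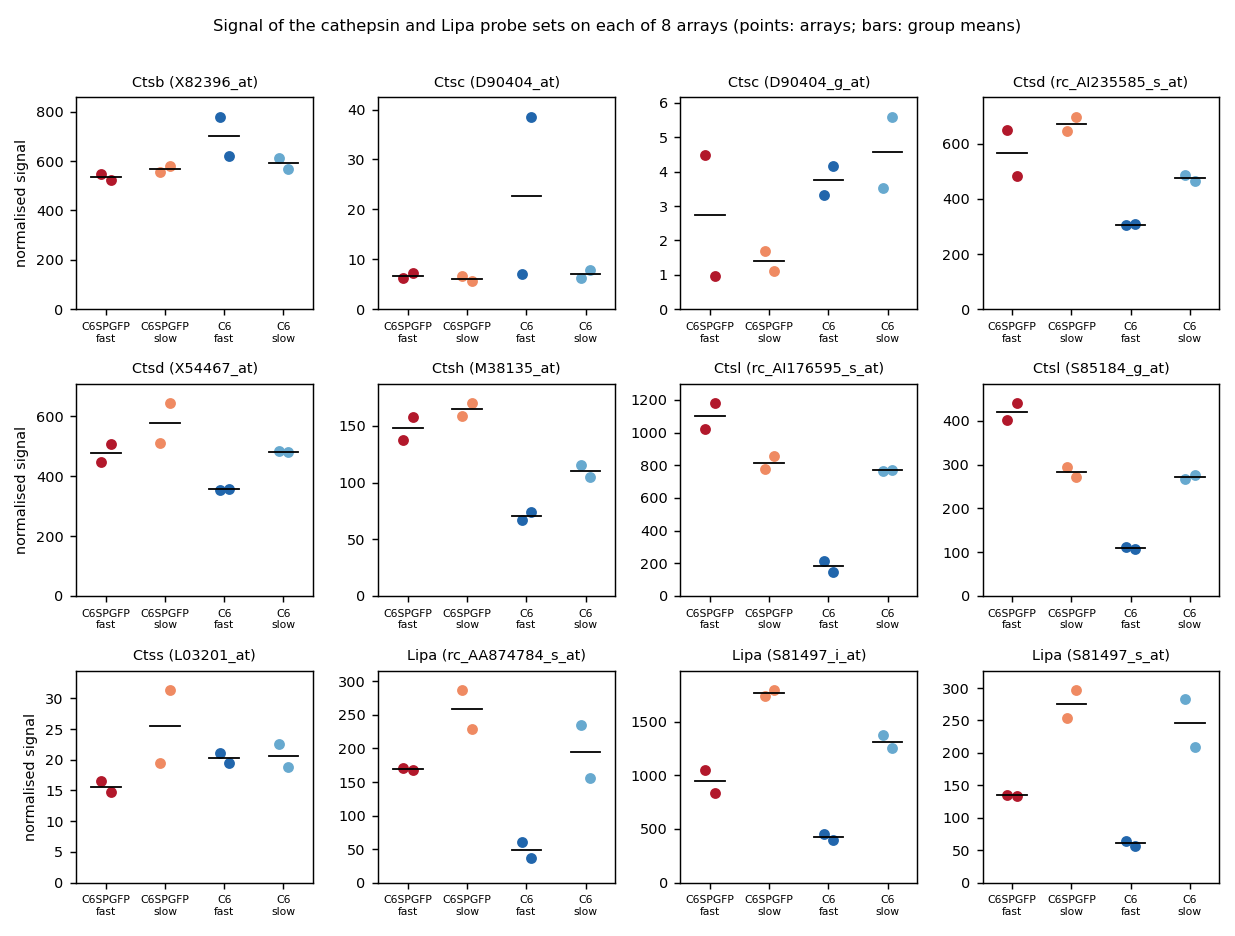
Normalised signal (linear axes from 0, arbitrary units) of the 12 probe sets of Ctsb, Ctsc, Ctsd, Ctsh, Ctsl, Ctss and Lipa, a point per array in C6SPGFP fast, C6SPGFP slow, C6 fast and C6 slow cells, with a line at each mean. The C6 fast arrays lie lowest for both Ctsl and all 3 Lipa probe sets, and Ctsb lies between 525 and 780 units on all arrays.

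Cathepsin L is an endopeptidase with broad specificity. Its probe set rc_AI176595_s_at had a normalised signal of 1019.7 and 1179 units in C6SPGFP fast cells, 778 and 855 in C6SPGFP slow cells, 213 and 148 in C6 fast cells, and 767 and 773 in C6 slow cells. The second probe set, S85184_g_at, had 403 and 440.5 units in C6SPGFP fast, 295 and 272 in C6SPGFP slow, 111 and 107 in C6 fast, and 268 and 275 in C6 slow cells. By both probe sets the C6 fast arrays were the lowest and the C6SPGFP fast arrays the highest, with no overlap between either pair and the slow arrays, and the slow arrays of both sets lay close together.

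Lysosomal acid lipase had 3 probe sets. For S81497_i_at the signal was 1053 and 837 units in C6SPGFP fast cells, 1742 and 1797 in C6SPGFP slow cells, 453 and 394 in C6 fast cells, and 1373 and 1252 in C6 slow cells. For S81497_s_at it was 135 and 134 units in C6SPGFP fast, 254 and 297 in C6SPGFP slow, 64.6 and 56.6 in C6 fast, and 283 and 209 in C6 slow cells. For rc_AA874784_s_at it was 171 and 168 units in C6SPGFP fast, 287 and 229 in C6SPGFP slow, 61.2 and 36.8 in C6 fast, and 235 and 155 in C6 slow cells. Within each set the fast arrays lay below the slow ones by all 3 probe sets, and C6 fast was the lowest group. The next group up was C6SPGFP fast by the means of all 3, although for rc_AA874784_s_at a C6 slow array fell below it.

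The comparison of fast with slow cells asks which transcripts go with the trait named in the titles. It was made as a difference of log2(signal + 8) with limma, called at a Benjamini-Hochberg adjusted p under 0.05 over all probe sets tested, and the error given with a log2 change is its SE. In C6, 5 of the 11 tested probe sets, those of Ctsl and Lipa, were called, all lower in fast cells, against 3.96% of all probe sets tested that were lower and 6.66% called in either direction. The median change over the 11 was -0.62, against 0.01 over all probe sets tested, and 9 of the 12 did not overlap between fast and slow arrays, where 45.1% of all probe sets tested did not.

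Ctsl averaged 181 ± 46 units in C6 fast and 770.2 ± 4.52 units in C6 slow cells (SD, n = 2 each) by rc_AI176595_s_at, a fall of 4.18-fold in signal plus 8. The log2 change was -2.06 ± 0.18 (SE, limma adjusted p = 0.000263) and it was -1.26 ± 0.15 by S85184_g_at (limma adjusted p = 0.00143). Lipa fell 3.06-fold by S81497_i_at, with a log2 change of -1.61 ± 0.14 (limma adjusted p = 0.000295). The other Lipa probe sets changed by -1.88 ± 0.20 and -1.84 ± 0.27 (limma adjusted p = 0.00072 and 0.00428), and the 95% confidence intervals of all 3 Lipa probe sets overlapped. The fall of Ctsl and Lipa in C6 exceeded the spread between replicates, and each of these 5 calls held in 16 of 17 alternative fits, all but the one on the deposited scaling. There the log2 changes were -2.17 and -1.33 for Ctsl and between -1.96 and -1.75 for Lipa. The array on another scale, C6SPGFP fast replicate 1, is not among those compared but enters the estimate of spread.

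The other cathepsins gave smaller differences in C6. Ctsd, the aspartic protease, had 305 and 308 units in C6 fast cells, against 486.5 and 464 in C6 slow cells, by rc_AI235585_s_at, and 355 and 357 units in C6 fast cells, against 485 and 479 in C6 slow cells, by X54467_at. The arrays did not overlap, but the log2 changes of -0.62 ± 0.17 and -0.43 ± 0.16 missed the threshold (limma adjusted p = 0.0658 and 0.168). Ctsh, an aminopeptidase, had 66.9 and 74.1 units in C6 fast cells and 116 and 105 units in C6 slow cells, a log2 change of -0.59 ± 0.18 that also missed it (limma adjusted p = 0.0941).

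Ctsb, a protease that cuts both inside proteins and dipeptides from their ends, had 780 and 622 units in C6 fast cells, against 614 and 569 in C6 slow cells. Its log2 change of 0.23 had a 95% confidence interval from -0.10 to 0.57, so a fall of the size seen for Ctsl or Lipa lay outside that interval. Ctss, a cathepsin that stays active at neutral pH and is typical of antigen-presenting cells, had 21.1 and 19.5 units in C6 fast and 22.5 and 18.8 units in C6 slow cells, and the log2 change was -0.01 ± 0.25. Ctsc, which activates granule proteases of blood cells, rested on a single array: D90404_at had 6.98 and 38.6 units in C6 fast cells, against 6.25 and 7.93 in C6 slow cells. Its mean of 10.7 units passed the filter of 8 only through C6 fast replicate 2, as every other array had 5.58 to 7.93 units. The log2 change of 0.81 ± 0.46 did not pass (limma adjusted p = 0.403), and without C6 fast replicate 1, which leaves only the high array, it was 1.66. The other Ctsc probe set, D90404_g_at, was below 5.6 units on every array and was not tested.

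**Figure D2:**
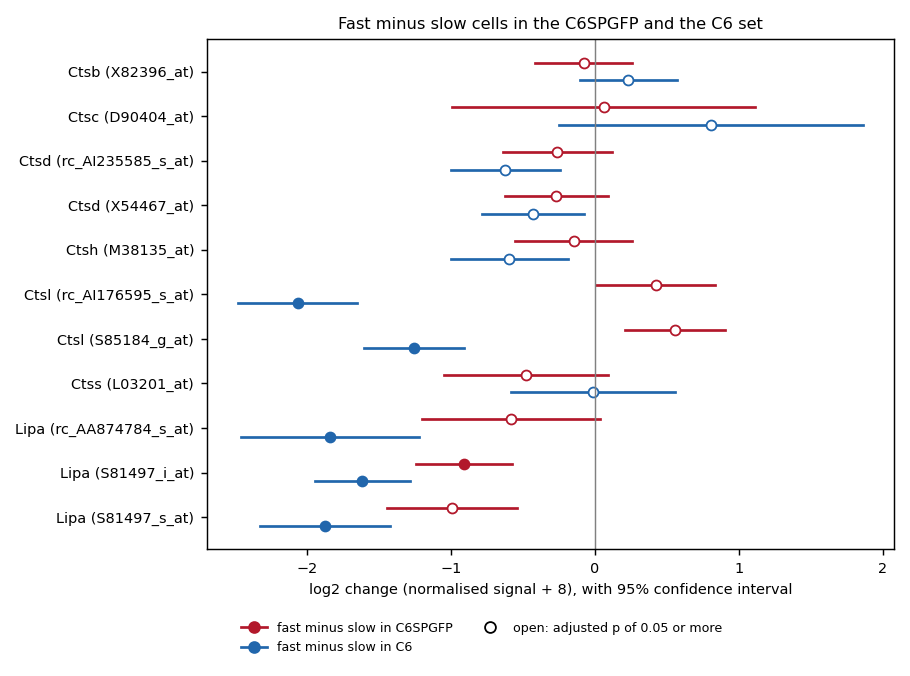
Difference between fast and slow cells in log2(normalised signal + 8) for the 11 tested probe sets, in C6SPGFP and in C6, with 95% confidence intervals of the limma fit; filled points have an adjusted p under 0.05. In C6 both Ctsl and all 3 Lipa points lie between -2.06 and -1.26; in C6SPGFP the Ctsl points are above 0 and 1 Lipa point, at -0.91, is filled.

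In C6SPGFP, 1 of the 11 probe sets was called, S81497_i_at of Lipa, which was lower in fast cells. Over all probe sets tested 0.329% were called lower and 1.39% either way, and the median change of the 11 was -0.26, against -0.02 over all. Again 9 of the 12 did not overlap, against 44.1% of all probe sets tested. Lipa averaged 945 ± 153 units in C6SPGFP fast and 1770 ± 39 units in C6SPGFP slow cells (SD, n = 2 each) by that probe set, with a log2 change of -0.91 ± 0.14 (limma adjusted p = 0.0227). The call rested on all but 1 of the set's arrays: the adjusted p was 0.114 without C6SPGFP slow replicate 1, 0.202 without C6SPGFP slow replicate 2 and 0.175 without C6SPGFP fast replicate 2. The other Lipa probe sets changed by -0.99 ± 0.20 (limma adjusted p = 0.0563) and -0.58 ± 0.27 (limma adjusted p = 0.547).

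Ctsl differed by 0.42 ± 0.18 and 0.56 ± 0.15 in C6SPGFP, with unadjusted p-values of 0.0457 and 0.00558 and limma adjusted p-values of 0.504 and 0.194. Thus the values were higher on each fast array than on each slow array, by both probe sets, without passing the correction. The changes of Ctsd were -0.26 and -0.27, that of Ctsh -0.15, that of Ctsb -0.08 and that of Ctsc 0.06, and Ctss gave -0.48 ± 0.25 (limma adjusted p = 0.585). None of these was called.

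The difference of the fast minus slow changes, C6SPGFP minus C6, tests whether a gene's fast cell change depended on the set. It was called for 2 of the 11 probe sets, both of Ctsl and both positive, against 2.71% of all probe sets tested with a positive call and 3.82% with any. The Ctsl difference was 2.49 ± 0.26 on the log2 scale by rc_AI176595_s_at (limma adjusted p = 0.000988) and 1.82 ± 0.21 by S85184_g_at (limma adjusted p = 0.00221). For Lipa it was 0.71 ± 0.20, 0.88 ± 0.28 and 1.26 ± 0.38, which did not pass (limma adjusted p = 0.127, 0.164 and 0.148), and the 95% confidence interval of the first ran from 0.24 to 1.18. For the other tested members it lay between -0.75, for Ctsc, and 0.45, for Ctsh.

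Averaged over both sets, 4 of the 11 probe sets were lower in fast cells, the 3 of Lipa and rc_AI176595_s_at of Ctsl, against 2.62% of all probe sets tested that were lower and 5.03% called either way. The Lipa changes on this mean were -1.26 ± 0.10, -1.43 ± 0.14 and -1.21 ± 0.19 (limma adjusted p = 0.000373, 0.00089 and 0.00882). The Ctsl change of -0.82 ± 0.13 (limma adjusted p = 0.00818) is an average over changes of opposite sign.

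The ratio of Lipa to Ctsl within an array does not depend on a scaling factor of that array, and 6 pairs can be formed from the 3 Lipa and 2 Ctsl probe sets. As log2 of the deposited signals of S81497_i_at over rc_AI176595_s_at it was 0.04 and -0.53 in C6SPGFP fast cells, 1.07 and 1.08 in C6SPGFP slow cells, 1.16 and 1.42 in C6 fast cells, and 0.89 and 0.76 in C6 slow cells. By this pair the ratio was lower on both fast than on both slow arrays of C6SPGFP, and higher on both fast than on both slow arrays of C6. Over the 6 pairs, the C6SPGFP fast arrays lay below the C6SPGFP slow arrays in all 6. In C6 the fast arrays lay above the slow arrays in 1 pair, overlapped with them in 2, and lay below them in the 3 pairs formed with S85184_g_at, so the direction in C6 depended on the probe set. By S81497_i_at over S85184_g_at the ratio was 2.21 and 1.90 in C6 fast cells, against 2.49 and 2.32 in C6 slow cells. The size of a ratio between probe sets has no meaning of its own.

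**Figure D3:**
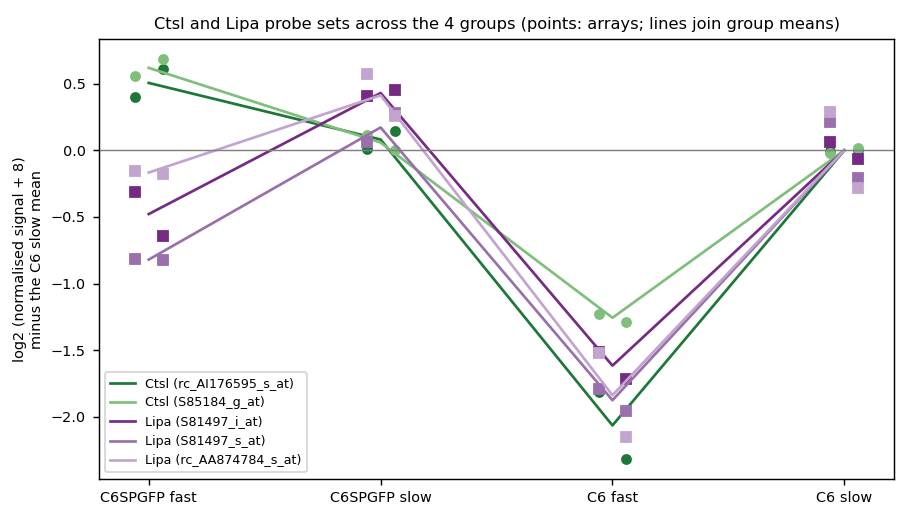
Level of the 2 Ctsl (circles) and 3 Lipa (squares) probe sets in the 4 groups, as log2(normalised signal + 8) minus the probe set's mean in C6 slow cells, with a point per array and lines joining group means. All 5 probe sets are lowest in C6 fast cells, and in C6SPGFP fast cells the Ctsl points lie above 0 and the Lipa points below it.

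Comparing C6SPGFP with C6 asks what the label C6SPGFP goes with. Among slow cells 0 of the 11 probe sets were called by limma, 3 had an unadjusted p under 0.05, and no other tool was run, against 6.34% of all probe sets tested that were called. The 3 were Ctsh, rc_AI235585_s_at of Ctsd and S81497_i_at of Lipa, with log2 changes of 0.54 ± 0.18, 0.49 ± 0.17 and 0.43 ± 0.14 (limma adjusted p = 0.117, 0.129 and 0.129). Ctsl changed by 0.08 and 0.06, with 95% confidence intervals from -0.33 to 0.49 and from -0.29 to 0.40. The arrays did not overlap for 6 of the 12 probe sets, close to the 51.4% of all probe sets tested.

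Among fast cells 7 of the 11 probe sets, of Ctsl, Lipa, Ctsd and Ctsh, were higher in C6SPGFP, against 8.29% of all probe sets tested that were higher and 15.6% called either way. The median change of the 11 was 0.99, against -0.03 over all, and 10 of the 12 did not overlap, against 55.6%. Ctsl averaged 1099 ± 113 units in C6SPGFP fast and 181 ± 46 units in C6 fast cells (SD, n = 2 each), 5.94-fold higher in signal plus 8, with a log2 change of 2.57 ± 0.18 (limma adjusted p = 4.63e-05), and changed by 1.88 ± 0.15 by the second probe set (limma adjusted p = 9.8e-05). Lipa averaged 945 ± 153 units in C6SPGFP fast and 424 ± 41.9 units in C6 fast cells, a log2 change of 1.14 ± 0.14 (limma adjusted p = 0.00122). Its other probe sets changed by 1.06 ± 0.20 and 1.67 ± 0.27 (limma adjusted p = 0.00851 and 0.00401). The first of these calls was lost without C6SPGFP fast replicate 2, at an adjusted p of 0.0558.

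Ctsh had 138 and 158 units in C6SPGFP fast cells, against 66.9 and 74.1 in C6 fast cells. Its log2 change was 0.99 ± 0.18 (limma adjusted p = 0.00647), or an adjusted p of 0.061 without C6SPGFP fast replicate 2. Ctsd had 651 and 482 units in C6SPGFP fast cells and 305 and 308 in C6 fast cells by rc_AI235585_s_at. That log2 change was 0.85 ± 0.17 (limma adjusted p = 0.00974), or an adjusted p of 0.068 without C6SPGFP fast replicate 1, and X54467_at changed by 0.41 ± 0.16 (limma adjusted p = 0.124), so the probe sets of Ctsd agree in sign and only 1 of them passed. Ctsb changed by -0.37 ± 0.15 and Ctss by -0.26 ± 0.25 (limma adjusted p = 0.136 and 0.561). Ctsc changed by -0.84 ± 0.46 (limma adjusted p = 0.281), and by -1.69 without C6 fast replicate 1, which leaves the array with the high signal. The fast minus slow comparison in C6 and this one share the C6 fast arrays.

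**Figure D4:**
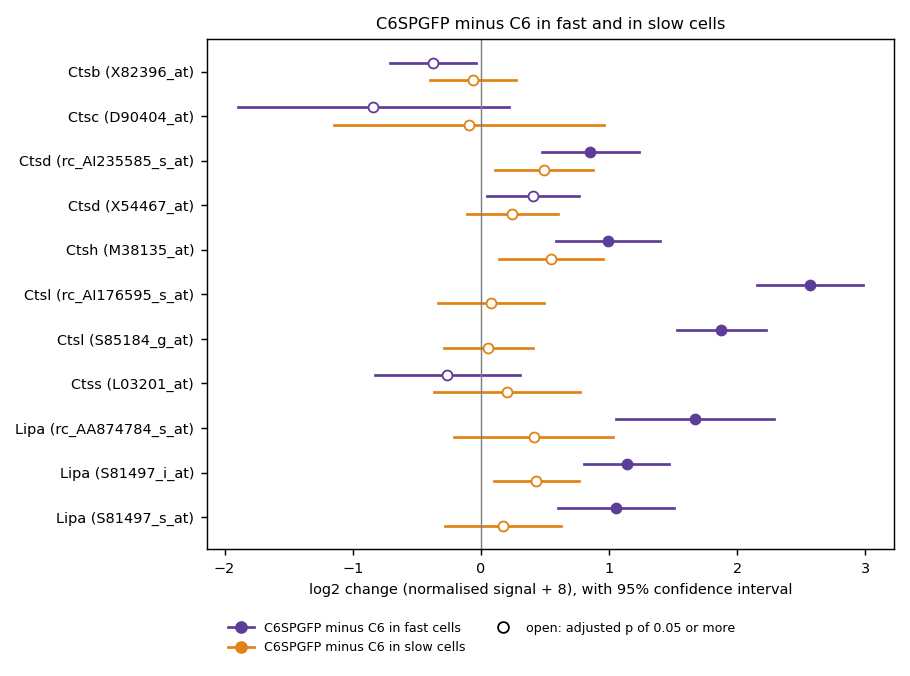
Difference between C6SPGFP and C6 in log2(normalised signal + 8) for the 11 tested probe sets, in fast and in slow cells, with 95% confidence intervals of the limma fit; open points have an adjusted p of 0.05 or more. In slow cells all points are open and in fast cells 7 are filled, from 0.85 for Ctsd to 2.57 for Ctsl.

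The order of the groups differed by gene. For Ctsl it ran, by the means, from C6SPGFP fast at the top over C6SPGFP slow and C6 slow to C6 fast, and only the last step was called. For Lipa by S81497_i_at it ran from C6SPGFP slow over C6 slow and C6SPGFP fast to C6 fast, and the test did not tell the topmost neighbours apart. For Ctsh it ran from C6SPGFP slow over C6SPGFP fast and C6 slow to C6 fast, with means of 165, 148, 110.4 and 70.5 units, and the test told apart neither the topmost neighbours nor C6 fast from C6 slow. The middle step of Lipa and of Ctsh, between C6SPGFP fast and C6 slow, was not tested. For Ctsb all group means lay between 537 and 701 units.

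Likeness was measured as the root mean square difference of log2(signal + 8), centred on its mean over the 8 arrays, with a smaller value for a closer pattern. The genes closest to Ctsl were Mfsd6, Pakap and Prph, at 0.174, 0.202 and 0.245. Those closest to Lipa were Cyfip2, Igfbp5 and Pdgfa, at 0.278, 0.289 and 0.305. Ctsh lay closest to Fuca1, C8h11orf54 and Enpp2, at 0.088, 0.097 and 0.122, and Ctsd to Endod1, Gpr161 and Fuca1, at 0.127, 0.145 and 0.147. Fuca1, the lysosomal fucosidase, is thus near both. Ctsb, Ctsc and Ctss spanned less than 1 log2 unit between group means and no like genes were sought. The distance between Ctsl and Lipa themselves was 0.588, larger than the 0.364 between the Ctsl probe sets and the 0.174 between the S81497 probe sets of Lipa.

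The lysosome holds many enzymes beside the cathepsins. Of 19 further lysosomal proteases 3 were on the array and only Ctsj was tested; its log2 change in C6 was -0.64 and was not called. Of 11 tested lysosomal glycosidases and lipid hydrolases, 0 were called by limma in fast against slow cells of either set, with 2 at an unadjusted p under 0.05 in C6 and 0 in C6SPGFP. Their median change was -0.07 in C6 and 0 genes of the list were called in the difference either, where 0 had an unadjusted p under 0.05. Over all probe sets tested 6.66% were called in C6, 1.39% in C6SPGFP and 3.82% on the difference, so 0 of 11 does not set this list apart. Between the sets 2 of the 11 were called in fast and 1 in slow cells, against 15.6% and 6.34% of all probe sets tested. Psap, the precursor of the saposins that help lipid hydrolases, was higher in C6SPGFP by 0.71 ± 0.09 in fast cells (limma adjusted p = 0.0014) and by 0.50 ± 0.09 in slow cells (limma adjusted p = 0.0174). With arrays scaled to a common trimmed mean these changes were 0.27 and 0.18 and neither was called, and in slow cells the call was also lost without C6 slow replicate 1 or either C6SPGFP slow replicate, at 0.058 to 0.133. Fuca1 had 343 and 342 units in C6SPGFP fast cells, against 170.5 and 189 in C6 fast cells, and was higher by 0.90 ± 0.16 (limma adjusted p = 0.00616; 0.0512 without C6SPGFP fast replicate 1).

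Among 5 tested protease inhibitors 1 was called in C6, where 6.66% of all probe sets tested were called. Cst3, cystatin C, the secreted inhibitor of cysteine cathepsins, had 222 and 217 units in C6 fast cells, against 434 and 346 in C6 slow cells, by rc_AI231292_g_at, a log2 change of -0.80 ± 0.17 (limma adjusted p = 0.0257). That call was lost without either C6 fast replicate, at adjusted p-values of 0.0807 and 0.107, and without C6 slow replicate 1, at 0.118, and was kept in 8 of 17 alternative fits. A second Cst3 probe set changed by -0.86 without passing (limma adjusted p = 0.138). In C6SPGFP fast cells Cst3 had 751 and 626 units, against 222 and 217 units in C6 fast cells, and it was higher by 1.61 ± 0.17 (limma adjusted p = 0.000473). In C6SPGFP 0 of the 5 were called between fast and slow cells by limma, and 0 had an unadjusted p under 0.05. Over all probe sets tested 1.39% were called there.

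Of 18 tested genes for the lysosomal membrane, its proton pump and the sorting of enzymes, 1 rose and 1 fell in C6 fast cells, and 0 were called in C6SPGFP by limma, where 4 had an unadjusted p under 0.05. Over all probe sets tested 6.66% were called in C6 and 1.39% in C6SPGFP. Igf2r, the large mannose 6-phosphate receptor, had 598 and 678 units in C6 fast cells, against 349 and 361 in C6 slow cells, a log2 change of 0.83 ± 0.15 (limma adjusted p = 0.0112), which missed the threshold with C6 slow replicate 1 left out, at 0.0546, or C6 fast replicate 2, at 0.0691. Sort1, the sorting receptor sortilin, fell by 1.30 on the log2 scale, with 14.6 and 21.1 units in C6 fast cells and 42.4 and 71.2 units in C6 slow cells (limma adjusted p = 0.0372), a call kept in 6 of 17 alternative fits, and a second Sort1 probe set changed by -0.91 (limma adjusted p = 0.0454). Lamp1, a main membrane protein of lysosomes, gave -0.60 ± 0.16 in C6 and did not pass (limma adjusted p = 0.0598). In C6SPGFP fast against C6 fast cells, 1 gene of this list was higher, Sort1 by 1.41 ± 0.30 (limma adjusted p = 0.0146), and 4 were lower, among them Igf2r by -1.16 ± 0.15, and the proton pump subunits Atp6v1a by -0.84 ± 0.18 and Atp6v0a1 by -0.79 ± 0.23 (limma adjusted p = 0.00122, 0.015 and 0.0494). Over all probe sets tested 15.6% were called in that comparison. The Sort1 call was lost without C6 fast replicate 1 or C6SPGFP fast replicate 1, at 0.0857 and 0.0976, that of Atp6v1a without C6 fast replicate 2 or either C6SPGFP fast replicate, at 0.0581 to 0.1, and that of Atp6v0a1 in 14 of 17 alternative fits. Igf2r and Sort1, which both carry enzymes to the lysosome, thus differed in opposite directions between these groups, except on the deposited scaling, where Igf2r turned to 0.005.

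Of 17 tested genes for other lipases, cholesterol esters and lipoproteins, 1 rose and 2 fell in C6 fast cells, and 0 were called in C6SPGFP by limma, where 2 had an unadjusted p under 0.05. The shares called over all probe sets tested were 6.66% in C6 and 1.39% in C6SPGFP. Plin2, which coats the droplets that store such lipids, had 315 and 254 units in C6 fast cells, against 972 and 1024 in C6 slow cells, and fell by 1.79 on the log2 scale (limma adjusted p = 0.000138). In C6SPGFP it had 1093 to 1200.4 units in fast and 1258 to 1339 units in slow cells, and its difference of changes was 1.61 ± 0.20 (limma adjusted p = 0.00283). Lcat, the enzyme that esterifies cholesterol in lipoproteins, fell by 1.12 on the log2 scale in C6 fast cells (limma adjusted p = 0.0123, against 0.0541 when C6 slow replicate 2 is left out and 0.0648 when C6 fast replicate 2 is). Vldlr, a lipoprotein receptor, rose by 0.95 ± 0.23 (limma adjusted p = 0.0477), a call kept in 6 of 17 alternative fits. In C6SPGFP fast against C6 fast cells, Plin2 was higher by 1.99 ± 0.14 and Lcat by 1.17 ± 0.20, and Acat2, which makes acetoacetyl-CoA ahead of sterol synthesis, was lower, at -0.96 ± 0.18 (limma adjusted p = 4.62e-05, 0.00544 and 0.00804). The Acat2 call was lost without C6 fast replicate 2 or C6SPGFP fast replicate 2, at 0.0559 and 0.0506.

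**Figure D5:**
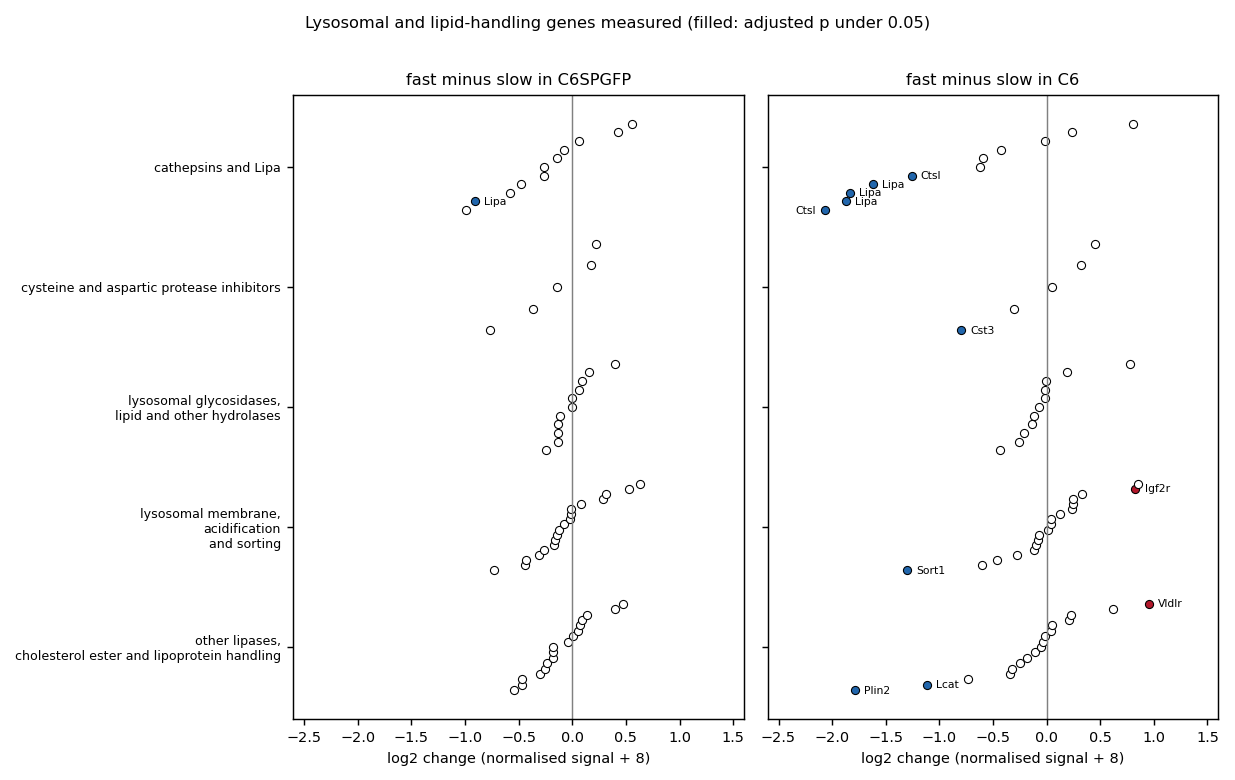
Fast minus slow change in log2(normalised signal + 8), a point per tested probe set of the cathepsins and Lipa and per tested gene of 4 further lists, in C6SPGFP and in C6; filled points have an adjusted p under 0.05 and carry their gene name. In C6 the Ctsl, Lipa and Plin2 points lie between -2.06 and -1.26, with Sort1, at -1.30, Lcat, at -1.12, and Cst3, at -0.80, also filled. Igf2r, at 0.83, and Vldlr, at 0.95, are filled above 0. The hydrolases have no filled point in either set, and in C6SPGFP the only filled point is Lipa.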

How the data were processed

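The deposited table gives an intensity on a linear scale for each of 8799 probe sets (59 controls) on 8 arrays, between 0 and 14287.9. How the authors computed it is not stated by the labels or the file, and detection calls are not used here. Signals were quantile normalised between arrays with R 4.3.3 and limma 3.58.1, since 1 array lay on another scale; control probe sets were then dropped. Tests covered the 6684 probe sets whose normalised signal averaged 8 or more, and 2056 fell short. In limma, lmFit estimated the 4 group means of log2(signal + 8) from all 8 arrays, with 4 residual degrees of freedom, and eBayes used a trend. For each of 6 comparisons p-values were two-sided and adjusted by Benjamini-Hochberg over the 6684, at 5%. The pseudocount draws changes of low genes towards 0, and folds are of signal plus 8. With 2 arrays against 2, an exact permutation test cannot go below p = 0.333, so none was run. The number of arrays limits the precision.

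GEO's platform annotation named 7018 probe sets by 1 symbol, 308 by several and 1473 by none; 6994 were updated through Entrez identifiers to a GRCr8 annotation and 24 kept theirs. No probe set with several symbols held a member's symbol. The labels do not say whether samples with the same replicate number were paired, and the fits as reported did not pair them. The members and lists were chosen with earlier results of these data known; a list used the probe set with the highest mean signal per gene, and from each list the called genes with the largest changes were named, up to 3 in each direction. Alternatives covered scaling, pseudocount, filter, trend, arrays fitted, a replicate block and leaving out each array. The code of the fit was also run on simulated data with independent normal noise and no array on another scale. No result given here rests on that run.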

Additional observations from a re-analysis of the deposited data

Results flagged for a closer look

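The fast minus slow change of Ctsl differed between the sets by an interaction test, with a log2 difference of 2.49 by rc_AI176595_s_at and 1.82 by S85184_g_at (C6SPGFP minus C6; limma adjusted p = 0.000988 and 0.00221). By either probe set the fast and slow arrays did not overlap within C6 or within C6SPGFP. This describes the values tested and adds no support. It held for 45.1% of all probe sets tested in C6 and 44.1% in C6SPGFP. The higher values in C6SPGFP fast cells were not called (limma adjusted p = 0.504 and 0.194). The difference was called in 15 of 16 alternative fits for each Ctsl probe set. The same test passed for 3.82% of all probe sets tested. Among the 8 glioma line markers tested it passed for 4, Sox10 at 4.62, S100b at 2.54, Nes at 1.62 and Cnp at 1.31 (limma adjusted p = 0.000126, 0.000433, 0.013 and 0.0243), each lower in fast cells of C6. Their calls were kept in 16, 15, 13 and 9 of 16 alternative fits. Among the genes of the lysosomal and lipid-handling lists, it passed for Plin2, at 1.61, and for Lcat, at 1.59, both lower in fast cells of C6. It passed for Atp6v0a1, at -1.58, and for Acat2, at -1.16 (limma adjusted p = 0.0338 and 0.0431). These calls were kept in 15 of 16 alternative fits for Plin2, 10 for Lcat, 8 for Atp6v0a1 and 7 for Acat2.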

How the results depend on the processing

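Besides the fits reported, up to 17 alternatives were run for each comparison. On the deposited scaling, where C6SPGFP fast replicate 1 keeps its higher scale and the median of all probe sets shifts to 1.04 between fast and slow cells of C6SPGFP and to 1.11 between the sets in fast cells, the members called numbered 0 in C6, 0 in C6SPGFP, 0 on the mean, 0 on the difference and 2 between the sets in fast cells, against 5, 1, 4, 2 and 7 as reported. There, signs turned in fast against slow cells of C6SPGFP for Ctss (0.51), Ctsh (0.95), Ctsb (1.05), the Lipa probe sets (0.55, 0.26 and 0.15) and those of Ctsd (0.91 and 0.90). On the mean they turned for Ctss (0.20), Ctsh (0.14), Ctsd (0.11 and 0.20) and S85184_g_at of Ctsl (0.19), and on the difference for Ctsc (0.10), Ctss (0.62) and Ctsb (0.84). Between the sets in fast cells they turned for Ctsc (0.012), Ctss (0.82), Ctsb (0.76), Igf2r (0.005), Atp6v1a (0.33), Atp6v0a1 (0.41), Atp6v1b2 (0.46) and Cd37 (0.119), and in C6SPGFP for Cnp (0.268). All of these follow the scale of that array.

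The count in C6SPGFP was 2 with a common trimmed mean, with a filter at the 50th percentile and with only the arrays compared, where S81497_s_at of Lipa joined, and 0 without the trend. Leaving out each array in turn gave 5 to 6 members called in C6, 0 to 2 in C6SPGFP, 4 on the mean, 2 on the difference, 0 in slow cells and 5 to 8 in fast cells between the sets. Among these fits signs turned for 5 changes, with ranges of -0.112 to 0.082 for Ctss in C6, -0.003 to 0.156 for Ctsb on the mean, -0.003 to 0.325 for X54467_at of Ctsd on the difference, and -0.056 to 0.466 for Ctss and -0.04 to 0.384 for S81497_s_at of Lipa between the sets in slow cells; none of the 5 was called as reported.

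The replicate block left the members called at 5, 1, 4, 2, 0 and 7. Same-numbered deviations correlated from -0.13 to 0.27, with the highest value between C6 fast and C6 slow. Over all probe sets, calls in C6 were 445 as reported and 250 with only the arrays compared; on the deposited scaling they were 20 in C6, 15 in C6SPGFP, 12 on the mean, 24 on the difference, 2 in slow and 182 in fast cells between the sets, against 445, 93, 336, 255, 424 and 1042. Leaving out an array gave 279 to 446, 21 to 107, 159 to 303, 123 to 273, 95 to 421 and 509 to 1127. With 2 arrays a group, the limit is precision, and no detection call places the lowest signals above background.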
